A study of Mus musculus with 16 samples.

Results

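The proteasome is the protease that degrades most short-lived and misfolded proteins of the cell, and the genes described here encode its subunits and regulators. The 37 genes were taken by symbol from the study's list of gene scores, without use of their measured values, although earlier results of these data were known. Of these, 36 stand among the 18111 gene symbols deposited, and Psmd3 was not analysed here. Psma1, Psma3 and Psma6 are listed at the floor of the scores on all 16 arrays and were matched to no probe, so no level is given for them. The other 33 were measured. They are 4 of 7 listed genes of the 20S alpha ring, all 7 of the beta ring, all 6 ATPases of the 19S base, 10 of 11 other 19S subunits, all 3 chaperones of 19S assembly, and all 3 genes of the 11S activator.

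RNA was measured on Illumina bead arrays, which report the signal of each probe after hybridisation of biotin-labelled cRNA. Hepatocytes, the main metabolic cells of the liver, and pancreatic islets, which hold the insulin-producing beta cells, came as primary cells from wild type B6 mice and were kept in culture. Treated hepatocytes received 200 nM and treated islets 10 nM FK866, which inhibits NAMPT, an enzyme of NAD synthesis, and controls of either tissue received 0.1% DMSO. Each of the 4 groups, control and FK866 in each tissue, had 4 arrays, and treatment lasted 48 h. All groups were wild type, so the inhibitor is the only manipulation named, and its dose cannot be told apart from the tissue. No DMSO content is recorded for the treated groups. The labels do not state whether the 4 arrays of a group came from separate animals or cultures. The p-values therefore cover the spread among these samples alone, and it may be technical.

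As background, the 20S core is a barrel of stacked rings. The outer alpha rings gate the entrance, and the inner beta rings hold the active sites of Psmb5, Psmb6 and Psmb7, which cut after hydrophobic, acidic and basic residues respectively. The 19S regulator caps the barrel: its ring of ATPases unfolds the substrate, its ubiquitin receptors hold it, and Psmd14 removes the ubiquitin chain. The 11S activator opens the core without ubiquitin, and its Psme1 and Psme2 subunits are induced by interferon. The transcription factor Nfe2l1, called NRF1 in the proteasome literature, raises transcription of proteasome genes when the protease is inhibited, through the antioxidant response element in their promoters.

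Array 2 of the islet controls and array 2 of the islets with FK866 were weaker than the rest. Median probe signals stood at 15.4 and 18.05 there, while the 6 remaining islet arrays had 26.9 to 33.1 and the hepatocyte arrays 27.1 to 30.1. Of 25697 probes, each array detected 11018 to 11846. Of 6 hepatocyte markers measured, Apoa1, Serpina1a, Cps1 and Ahsg were detected on 0 of 8 islet arrays, while Ttr and Hnf4a were detected on all 8. Ttr was higher in control islets than in control hepatocytes (1.63 log2, SE 0.32), and the summed log2 signal of the list, 14.61 to 15.53 in control islets and 14.71 to 15.49 in control hepatocytes, did not separate the tissues. Of 10 beta cell markers, Ins2, Pdx1, Nkx6-1, Slc30a8, G6pc2 and Ucn3 were detected on 0 of 8 hepatocyte arrays and Ins1, Iapp and Slc2a2 on all 8, with a sum of 9.51 to 9.77 in control hepatocytes and 17.18 to 17.42 in control islets. Of 10 macrophage and leukocyte markers, 9 were detected on all 4 islet control arrays and 4 on all 4 hepatocyte control arrays, and their summed log2 signal was 12.58 to 13.03 in the former and 11.74 to 12.27 in the latter. The sum of fibroblast and stellate markers went the other way, at 13.41 to 13.84 in hepatocyte controls and 10.30 to 11.65 in islet controls. That of duct markers did too, at 14.51 to 14.86 and 12.75 to 13.25. Single genes did not all follow the sums. Col1a2, Col3a1, Lum and Pdgfrb were detected on no hepatocyte control array, and Lum and Tagln on no islet control array. Of 6 fibroblast and stellate markers tested, 4 were called lower in control islets and 1 higher. Of 4 duct markers, 3 were called lower and 1 higher, by 7.06 log2. Of all genes, 31.1% were called lower and 35% higher. The part of such cells in the proteasome values was not tested. In RNA of whole cultures, fewer cells of a type and less RNA per cell cannot be told apart.

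Promoter sequences show what these genes share apart from their RNA. RefSeq promoters of assembly GRCm38.p6, from 250 bases before to 50 after a start site, were given for 31 of the 37 genes. The antioxidant response element, written TGACNNNGC and searched on both strands, was found in 5 of the 31, or 16.1%, and in 14.0% of the 27025 genes with a promoter. Its carriers were the catalytic subunits Psmb5 and Psmb6, the assembly chaperone Psmd9, the ATPase Psmc6 and the lid subunit Psmd12. The match lay at -47, -9 and -31 bases from the start in Psmb5, Psmb6 and Psmd9 and at -227 and -247 in Psmc6 and Psmd12. The CCAAT box, CCAAT on either strand, was found in 12 of the 31 (38.7%) and in 41.1% of all genes. The core site of nuclear respiratory factor 1, a different protein from Nfe2l1, which reads GCGC, any base and TGCGC, was found on either strand in 6 of the 31 (19.4%) and in 5.19% of all genes. Its carriers were Psma2, Psma3, Psma4, Psmc4, Psmc5 and Psmd14. A match is a description of these letters and not evidence of binding. The 3 promoters with the antioxidant response element near the start are printed with the matched letters in capitals, followed by Psmd8, which had the smallest adjusted p among the genes lower in islets, and Psmc5, the 1 gene called higher there, which have no match. They lie at chr14:54617946-54618245 on the minus strand for Psmb5, chr11:70525107-70525406 on the plus strand for Psmb6, chr5:123227940-123228239 on the plus strand for Psmd9, chr7:29180624-29180923 on the minus strand for Psmd8 and chr11:106255935-106256234 on the plus strand for Psmc5.
Psmb5: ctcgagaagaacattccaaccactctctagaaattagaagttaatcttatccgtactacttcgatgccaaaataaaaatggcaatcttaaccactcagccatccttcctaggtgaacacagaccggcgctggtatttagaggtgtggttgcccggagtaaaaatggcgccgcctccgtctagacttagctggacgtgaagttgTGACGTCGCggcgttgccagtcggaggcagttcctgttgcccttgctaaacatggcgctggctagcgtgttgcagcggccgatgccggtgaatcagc
Psmb6: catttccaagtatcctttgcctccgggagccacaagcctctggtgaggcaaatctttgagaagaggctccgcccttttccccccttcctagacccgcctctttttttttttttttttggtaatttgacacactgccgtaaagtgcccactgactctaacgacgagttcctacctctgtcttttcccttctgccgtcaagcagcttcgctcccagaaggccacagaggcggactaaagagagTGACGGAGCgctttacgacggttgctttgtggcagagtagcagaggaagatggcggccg
Psmd9: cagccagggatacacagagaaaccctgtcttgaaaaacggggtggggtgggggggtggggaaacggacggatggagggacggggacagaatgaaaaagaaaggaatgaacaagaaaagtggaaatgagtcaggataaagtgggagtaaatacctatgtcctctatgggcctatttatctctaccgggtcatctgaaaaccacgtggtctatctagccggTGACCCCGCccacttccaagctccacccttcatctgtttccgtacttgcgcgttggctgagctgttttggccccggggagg
Psmd8: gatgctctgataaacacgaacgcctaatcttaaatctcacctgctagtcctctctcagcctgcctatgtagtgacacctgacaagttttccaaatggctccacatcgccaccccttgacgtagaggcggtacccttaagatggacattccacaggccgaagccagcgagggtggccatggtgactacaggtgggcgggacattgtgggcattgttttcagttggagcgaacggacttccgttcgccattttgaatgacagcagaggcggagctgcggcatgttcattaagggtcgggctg
Psmc5: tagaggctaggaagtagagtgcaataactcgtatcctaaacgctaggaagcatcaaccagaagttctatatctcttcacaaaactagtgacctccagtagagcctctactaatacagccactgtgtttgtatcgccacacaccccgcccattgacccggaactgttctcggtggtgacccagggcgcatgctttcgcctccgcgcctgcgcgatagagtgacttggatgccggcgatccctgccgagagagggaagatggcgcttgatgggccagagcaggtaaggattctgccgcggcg

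The first comparison set control islets against control hepatocytes and asked how the tissues differ in proteasome RNA before any inhibitor. Most proteasome genes were lower in islets. Of the 33 genes, 31 had a lower mean and 2 a higher one, with a median difference of -0.65 log2 against 0.08 over all 10067 genes tested. By limma's moderated test at an adjusted p of 0.05, with 4 arrays per group, 22 were called lower, where 31.1% of all genes were, and 1 was called higher, where 35% of all genes were. In all, 66% of genes were called in 1 direction or the other. With the replicate number as a block 22 of the 33 were called and 65.2% of all genes. In 20 of the 22 all islet arrays lay below all hepatocyte arrays, which held for 28.2% of all genes, and in 1 all islet arrays lay above, which held for 31.6%. Medians by role were -0.93 in the alpha ring, -0.56 in the beta ring, -0.58 in the ATPases, -1.13 in the other 19S subunits, -0.59 in the 19S chaperones and -0.57 in the 11S activator. Without both islet arrays numbered 2 the 11S median was -0.17 and the beta ring median -0.38.

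**Figure D1:**
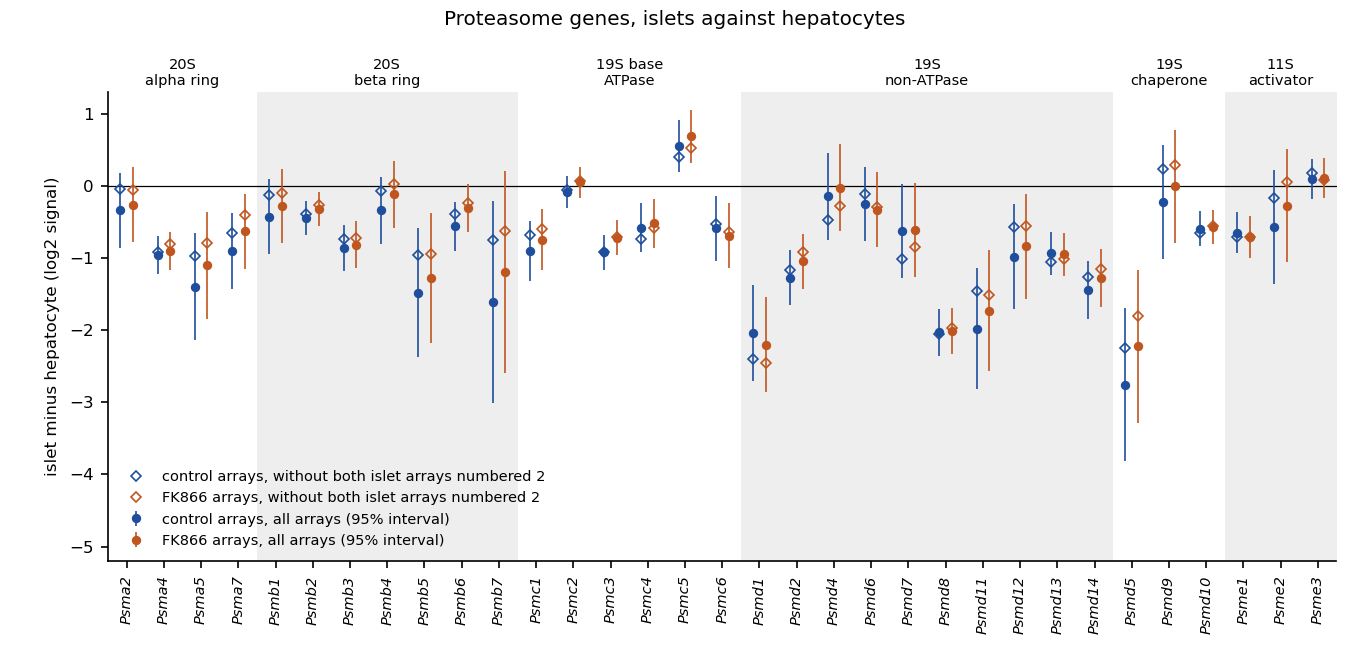
Difference in log2 signal, islet minus hepatocyte, of the 33 measured proteasome genes by role, for control arrays (blue) and FK866 arrays (orange), with 4 arrays per group. Filled points with bars are means and 95% intervals over all arrays, open diamonds leave out both islet arrays numbered 2, and 31 of 33 control points lie below 0.

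In the alpha ring, which forms the gate of the core, 3 of 4 measured genes were called lower in islets. Psma5 differed by -1.39 log2 (SE 0.35), Psma4 by -0.96 (SE 0.12) and Psma7 by -0.90 (SE 0.24). For Psma2 the difference was -0.33 (SE 0.24), which did not pass (limma, adjusted p = 0.240) and was -0.04 (SE 0.09) without both islet arrays numbered 2. The low Psma5 mean rested partly on islet control array 2, at 11.43 against 12.93 to 13.25 on the other 3, and without both islet arrays numbered 2 its difference was -0.97 (SE 0.10).

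All 7 genes of the beta ring had lower means in islets, and 5 were called. Psmb5, the chymotrypsin-like subunit, measured 11.66, 11.89, 11.73 and 11.43 on hepatocyte control arrays 1 to 4 and 10.51, 8.61, 10.77 and 10.91 on islet control arrays 1 to 4. The groups did not overlap, and islet array 2 was the lowest. Its difference was -1.48 log2 (SE 0.42; limma, adjusted p = 0.00582), or -0.95 (SE 0.15) without both islet arrays numbered 2. Psmb6, the caspase-like subunit, measured 13.22, 13.40, 13.30 and 13.30 in hepatocytes and 12.96, 12.22, 12.84 and 12.97 in islets. Every hepatocyte array again lay above every islet array, and the difference was -0.56 (SE 0.16; limma, adjusted p = 0.00568).

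Psmb7, the trypsin-like subunit, measured 13.17, 13.33, 13.32 and 13.27 on the hepatocyte control arrays and 12.66, 9.12, 12.16 and 12.74 on the islet control arrays. The groups did not overlap, but 1 islet array lay over 3 log2 units below the rest. Its difference of -1.60 log2 (SE 0.66) was just past the threshold (limma, adjusted p = 0.0427). Without both islet arrays numbered 2 it was -0.75 with an SE of 0.13 (limma, adjusted p = 7.36e-05). The call was lost without islet control array 2 alone (limma, adjusted p = 0.116), without any 1 of the hepatocyte control arrays (0.067 to 0.0764) and without the detection filter (0.0676). Of the subunits without a catalytic site, Psmb3 at -0.86 (SE 0.15) and Psmb2 at -0.44 (SE 0.11) were called, and Psmb1 at -0.42 (SE 0.24) and Psmb4 at -0.34 (SE 0.22) were not. Without both islet arrays numbered 2 the latter were -0.12 (SE 0.09) and -0.07 (SE 0.10).

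Among the 6 ATPases that unfold the substrate, 4 were called lower in islets and 1 higher. Psmc3 differed by -0.92 log2 (SE 0.11), Psmc1 by -0.90 (SE 0.20) and Psmc4 by -0.58 (SE 0.16). Psmc6 measured 6.48, 6.53, 5.63 and 5.86 in hepatocytes and 5.42, 5.34, 5.67 and 5.73 in islets, so the groups overlapped. It was not above background on any islet array of the control group. Its difference was -0.59 log2 (SE 0.21; limma, adjusted p = 0.023), and with the replicate number as a block it was not called (limma, adjusted p = 0.0971). With islet values raised to the lowest detected signal of each array, the hepatocyte mean was 1.20-fold the islet mean, which was not tested. Psmc2 measured 13.71, 13.69, 13.63 and 13.65 in hepatocytes and 13.54, 13.49, 13.63 and 13.69 in islets. These ranges overlapped, and the difference of -0.08 (SE 0.10, 95% interval -0.30 to 0.14) did not pass (limma, adjusted p = 0.498).

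Psmc5 was the 1 proteasome gene called higher in islets. It measured 12.06, 12.11, 11.94 and 11.93 on the hepatocyte control arrays and 12.52, 13.02, 12.36 and 12.37 on the islet control arrays. The groups did not overlap, and islet array 2 was the highest. Its difference was 0.56 log2 (SE 0.17; limma, adjusted p = 0.00927), or 0.41 (SE 0.09) without both islet arrays numbered 2. A second probe of Psmc5, detected on all 16 arrays, differed by -0.20, so the direction rests on the probe. The call was lost with the mean of its probes (0.18; limma, adjusted p = 0.234), on the deposited scores (0.17, 0.318) and with median centring in place of quantile normalization (0.40, 0.0819).

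Among the subunits of the 19S lid and base that are not ATPases, 7 of 10 were called lower in islets. Psmd1, the large scaffold of the base, measured 9.16, 9.57, 9.32 and 9.38 in hepatocytes and 7.11, 8.42, 7.06 and 6.69 in islets. The groups did not overlap, although islet array 2 was the highest of its group. Its difference was -2.03 log2 (SE 0.31; limma, adjusted p = 2.91e-05), or -2.40 (SE 0.13) without both islet arrays numbered 2. Psmd8, a lid subunit, measured 13.53, 13.63, 13.59 and 13.50 in hepatocytes and 11.15, 11.61, 11.45 and 11.92 in islets. All 4 islet arrays were close together and far below the hepatocyte arrays, islet array 2 included. The difference of -2.03 (SE 0.15; limma, adjusted p = 6.72e-09) was -2.06 without both islet arrays numbered 2.

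Psmd11, the lid subunit that clamps the regulator to the core, measured 10.28, 10.96, 10.54 and 10.40 in hepatocytes and 9.11, 6.97, 9.03 and 9.14 in islets. The groups did not overlap, and islet array 2 was more than 2 below its group. Its difference was -1.98 log2 (SE 0.40; limma, adjusted p = 0.000379), or -1.45 (SE 0.16) without both islet arrays numbered 2. Psmd14, the deubiquitinase of the lid, measured 10.87, 11.38, 11.03 and 10.84 in hepatocytes and 9.76, 9.03, 9.71 and 9.85 in islets. Every islet array was lower by about 1 or more than every hepatocyte array. Its difference was -1.44 (SE 0.19; limma, adjusted p = 6.27e-06). The remaining called genes of this role were Psmd2, which docks ubiquitin carriers, at -1.27 (SE 0.18), and the lid subunits Psmd12 at -0.98 (SE 0.34) and Psmd13 at -0.93 (SE 0.14). Psmd12 differed by -0.56 (SE 0.12) without both islet arrays numbered 2 and was still called.

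Psmd4, a ubiquitin receptor, measured 13.42, 13.50, 13.43 and 13.47 in hepatocytes and 12.97, 14.28, 13.003 and 12.99 in islets. The groups overlapped through islet array 2 alone, and its difference of -0.14 log2 (SE 0.28) did not pass (limma, adjusted p = 0.665). Without both islet arrays numbered 2 it was lower in islets by limma, at -0.47 (SE 0.10, adjusted p = 0.000566). Psmd7, the partner of Psmd14 in the lid, behaved alike: it was at 12.66 on islet control array 2 and at 11.02 to 11.25 on the others, against 12.07 to 12.17 in hepatocytes. Its difference was -0.62 (SE 0.30; limma, adjusted p = 0.0831) with all arrays and -1.0099 (SE 0.09; limma, adjusted p = 7e-08) without both arrays. Its other probe, detected on all 16 arrays, differed by -1.52.

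Of the 3 chaperones that assemble the 19S base, 2 were called lower in islets. Psmd5 measured 9.32, 9.76, 9.62 and 9.48 in hepatocytes and 7.78, 5.26, 6.22 and 7.92 in islets. The islet arrays spread over more than 2 log2 units and all lay below the hepatocyte arrays. Psmd5 was detected on 7 of 8 islet arrays, so its lowest islet value lay near background. Its difference was the largest of the 33 genes in size, at -2.75 log2 (SE 0.50; limma, adjusted p = 0.000161), or -2.24 (SE 0.30) without both islet arrays numbered 2. Psmd10, known as gankyrin, differed by -0.59 (SE 0.11), and its other probes differed by -1.90 and -0.96. Psmd9 differed by -0.22 (SE 0.37), which did not pass, with islet control array 2 at 6.05 and the others at 7.70 to 7.99. Its sign turned, to 0.23 (SE 0.13), without both islet arrays numbered 2.

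In the 11S activator 1 of 3 genes was called lower in islets. The interferon-inducible Psme1 measured 12.95, 12.72, 12.69 and 12.50 in hepatocytes and 12.11, 12.27, 11.92 and 11.99 in islets. The groups did not overlap, and the difference was -0.65 log2 (SE 0.14; limma, adjusted p = 0.000602). Its partner Psme2 measured 10.28, 10.42, 10.40 and 10.26 in hepatocytes and 10.40, 8.57, 9.61 and 10.50 in islets. Those values overlapped, and the difference of -0.57 (SE 0.37) did not pass (limma, adjusted p = 0.188) and was -0.17 (SE 0.19) without both islet arrays numbered 2. Psme3, the nuclear member of the family, measured 10.76, 10.73, 10.82 and 10.87 against 10.90, 10.66, 11.21 and 10.80. It overlapped too, with a difference of 0.10 (SE 0.13, 95% interval -0.18 to 0.38).

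**Figure D2:**
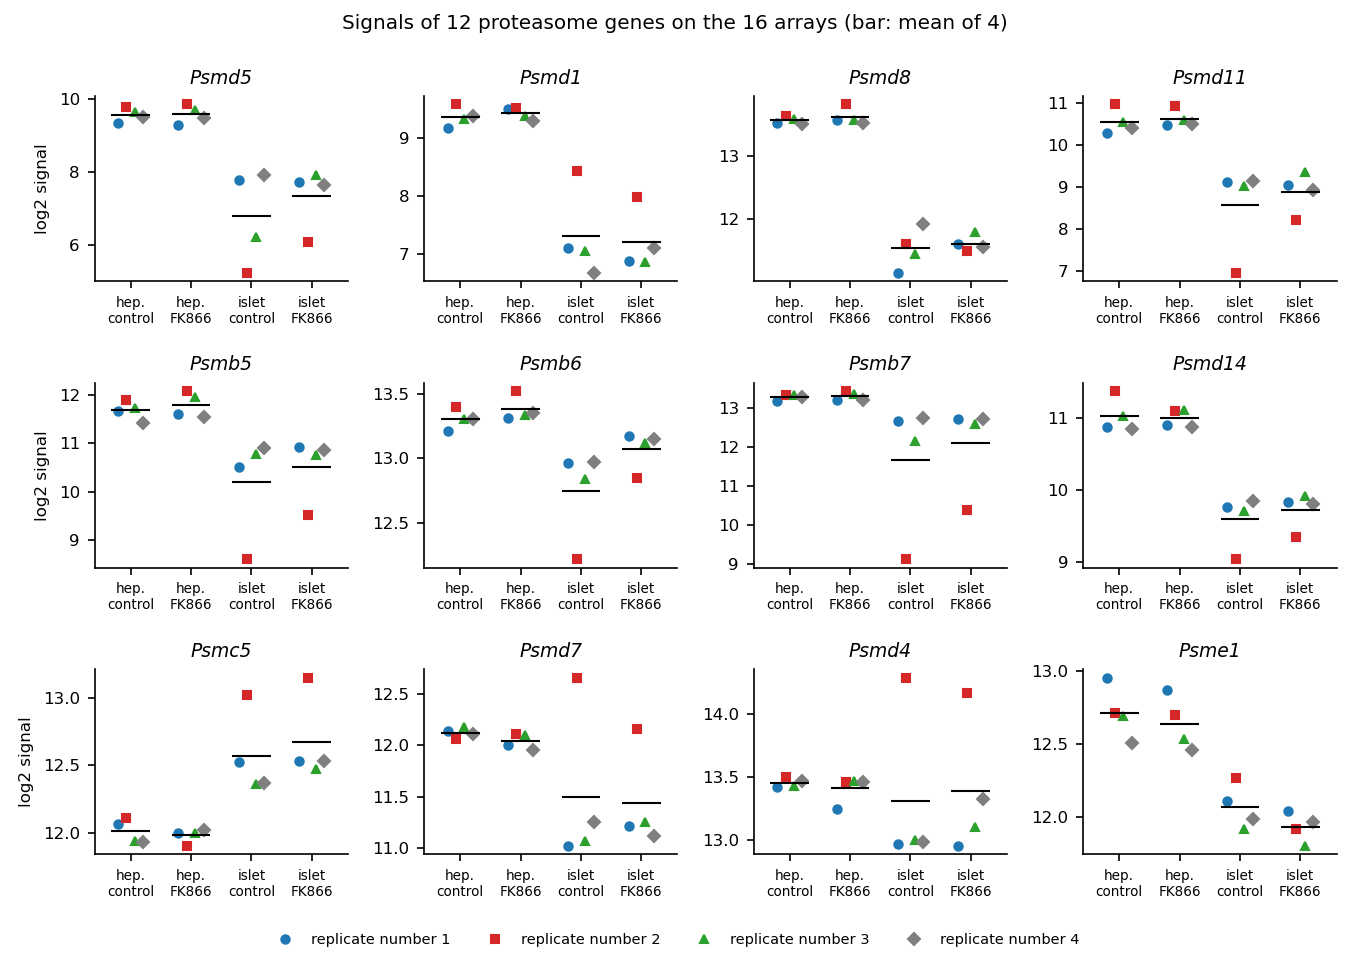
Log2 signal of 12 proteasome genes on all 16 arrays, normalized together, by group, with colour and shape giving the replicate number and a black bar the mean of 4 arrays; each panel has its own axis, which does not start at 0. Psmd8 separates the tissues on every array, while the islet arrays numbered 2 (red squares) lie lowest for Psmb5 and Psmb7 and highest for Psmd4 and Psmd7.

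The same tissue comparison was made in the FK866 arrays, which are other samples but not an independent repeat. Both comparisons came from the same fit with a shared spread, and deviations of same-numbered control and FK866 arrays were correlated. In the FK866 arrays 30 of 33 genes had lower means in islets, with a median of -0.69 log2. By limma 20 were called lower, where 29.2% of all genes were, and 1 was called higher, where 33.8% of all genes were and 63% were called in either direction. All islet arrays lay below all hepatocyte arrays for 22 of the 33 (30.3% of all genes) and above for 1 (34.9%). All 20 were also called lower in the control arrays. Psmb6, at -0.31 (SE 0.16; limma, adjusted p = 0.104), and Psmb7, at -1.19 (SE 0.66; limma, adjusted p = 0.128), were called in the control arrays and not here, although all islet arrays lay below all hepatocyte arrays for both. Psmd8 differed by -2.01 (SE 0.15), Psmd1 by -2.20 (SE 0.31) and Psmd5 by -2.22 (SE 0.50), and Psmc5 was higher by 0.69 (SE 0.17; limma, adjusted p = 0.00227). With the replicate number as a block 20 of the 33 and 62.6% of all genes were called, and Psmc6 was not (limma, adjusted p = 0.0556). The call of Psmb5 was lost without islet FK866 array 2 alone, at -0.94 (limma, adjusted p = 0.0549).

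Left without both islet arrays numbered 2, the control comparison called 24 genes lower, where 35.5% of all genes were, and 1 higher, where 41.2% were. All islet arrays lay below all hepatocyte arrays for 23 of the 33 (33.7% of all genes) and above for 1 (39.3%). No call was lost, and Psmd4 and Psmd7 were called in addition. The median was -0.68 log2. The FK866 arrays likewise gave 24 called lower (34.7% of all genes) and 1 called higher (40.6%), with Psmb6, Psmb7, Psmd4 and Psmd7 in addition and a median of -0.59. There 23 had all islet arrays below (35.1% of all genes) and 2 had them above (41.3%).

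The second comparison asked what 200 nM FK866 did to proteasome RNA in hepatocytes. No proteasome gene changed by the test. Limma called 0 of 33, as it called 0 of all 8562 genes tested (0%), and 0 of the 33 had an unadjusted p under 0.05, with or without the replicate block, against 145 and 535 of all genes. None of the 33 had all FK866 arrays above or below all controls, which held for 0.619% and 0.456% of all genes. The median difference was 0.01 log2, with 22 genes higher and 11 lower, and single genes ranged from -0.10 to 0.17. The 95% interval of each of the 33 lay between -0.43 and 0.62, and the number of arrays limits the precision.

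The 4 largest differences in hepatocytes were small beside the spread of the arrays. The ATPase Psmc6 measured 6.52, 6.58, 5.69 and 5.92 in controls and 6.45, 6.12, 6.36 and 6.47 with FK866, on the scale of the hepatocyte arrays alone. Its groups overlapped, it lay near background, and it differed by 0.17 log2 (SE 0.20, 95% interval -0.28 to 0.62). Psmb5 measured 11.75, 11.99, 11.83 and 11.51 in controls and 11.68, 12.17, 12.05 and 11.63 with FK866. In both groups array 2 was the highest, the ranges overlapped, and the difference was 0.11 (SE 0.15, 95% interval -0.22 to 0.45).

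The chaperone Psmd9 measured 7.71, 7.96, 7.40 and 7.59 in controls and 7.50, 7.67, 7.70 and 7.39 with FK866, a difference of -0.10 log2 (SE 0.13). Psmd2 measured 7.76, 7.78, 7.81 and 7.93 against 7.64, 8.22, 8.03 and 7.78, a difference of 0.10 (SE 0.12). Both overlapped between groups, and the sign of both turned with the mean of all their probes. The remaining catalytic subunits differed by 0.08 (SE 0.08) for Psmb6 and 0.02 (SE 0.08) for Psmb7, the deubiquitinase Psmd14 by -0.03 (SE 0.13), Psme1 by -0.08 (SE 0.12) and Psme2 by 0.00038 (SE 0.12). Psmb6 was higher in each of the 4 pairs of arrays with the same number, by 0.09, 0.13, 0.03 and 0.05, which held for 6.9% of all genes. Psme1 was the 1 gene lower in all 4 pairs, which held for 7.12%.

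Between hepatocyte arrays proteasome genes had the smaller spread. The median SD over the 4 control arrays was 0.087 log2 for the 33 genes and 0.152 for all genes, and over the 4 FK866 arrays 0.1097 and 0.153. Psmb4 had the smallest SD in controls, at 0.018, and Psmb2 with FK866, at 0.016. In islets the medians were 0.436 for proteasome genes and 0.445 for all genes in controls, and 0.315 and 0.307 with FK866. Without the arrays numbered 2 they were 0.139 and 0.1997, and 0.0875 and 0.136. Psmb7 had the largest islet SD in both groups, at 1.72 and 1.15 with all arrays. Psmc6, which lay near background, had the largest SD in hepatocyte controls, at 0.448. No test was made of these differences in spread, and signal level was not matched between proteasome genes and all genes.

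The third comparison asked the same of 10 nM FK866 in islets. Here most proteasome genes had higher means with FK866, yet none passed the test. Limma called 0 of the 32 genes tested and 0 of all 8918 genes (0%). At an unadjusted p under 0.05 there were 0 of the 32 and 121 of all genes. In the fit with the replicate block there were 2 of the 32, Psmb6 and Psmd2, and 1032 of all genes, of which 1 was called (0.0112%). The smallest adjusted p of a proteasome gene in that fit was 0.394 by limma. None of the 32 had all FK866 arrays above or below all controls, which held for 0.516% and 1.15% of all genes. The median difference was 0.13 log2 against -0.003 over all genes, with 28 genes higher and 4 lower. Pair medians were 0.06, 0.26, 0.18 and -0.01 for arrays 1 to 4, so that pair 2 lay highest and pair 4 near 0. Medians by role were 0.15 in the alpha ring, 0.21 in the beta ring, 0.13 in the ATPases, 0.08 in the other 19S subunits, 0.12 in the chaperones and 0.07 in the 11S activator. The beta ring median was 0.11 and the 11S median -0.03 without both islet arrays numbered 2.

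**Figure D3:**
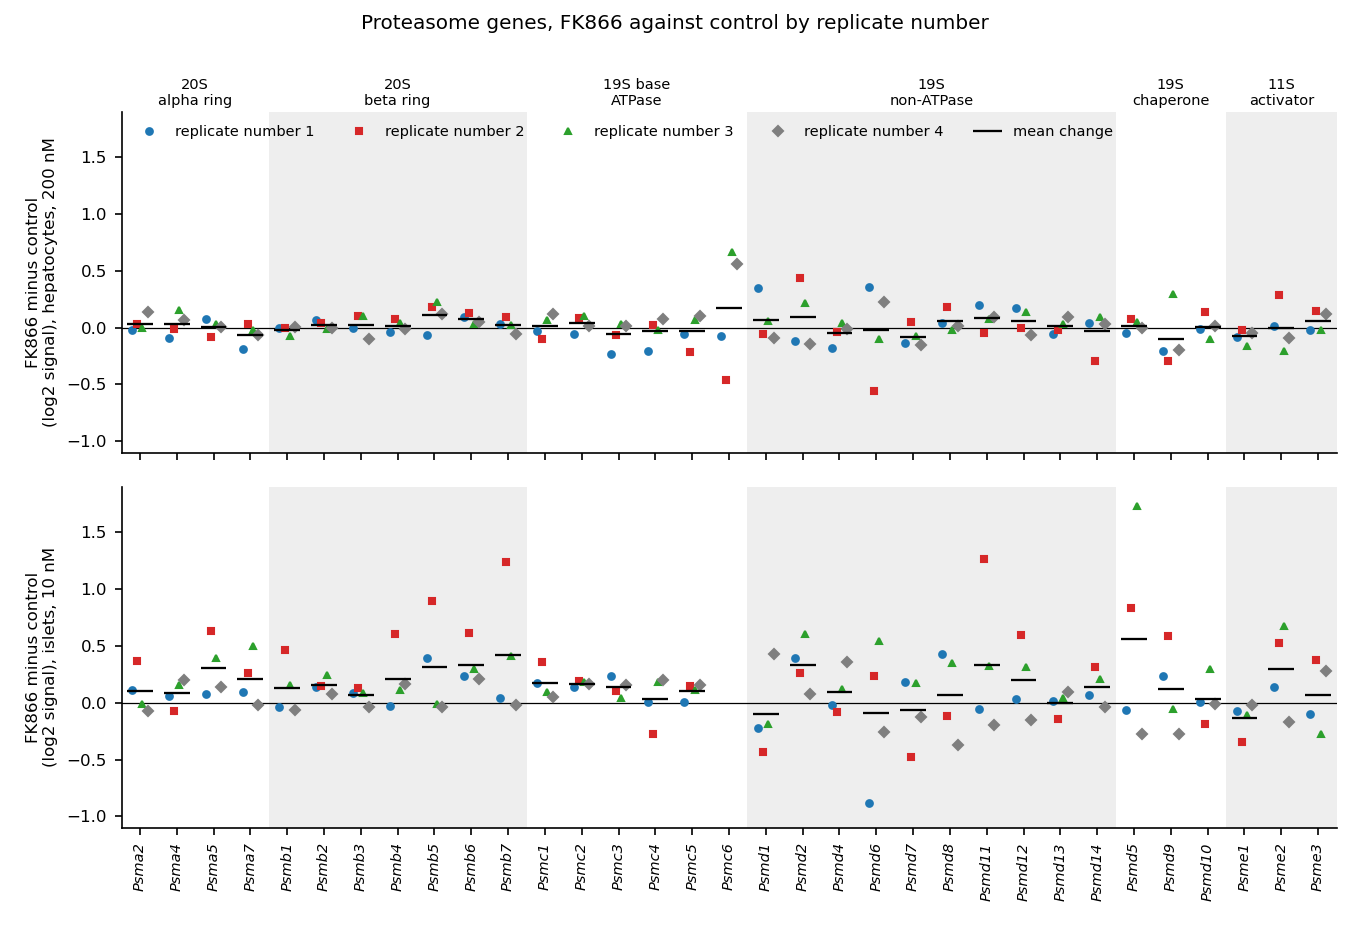
Difference in log2 signal, FK866 minus control, of each measured proteasome gene between the 2 arrays of the same replicate number, in hepatocytes (top) and islets (bottom), with a black bar at the mean change. Changes in hepatocytes lie near 0, and in islets pair 2 (red squares) holds the largest value for Psmb7 and Psmd11 and pair 3 (green triangles) for Psmd5.

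The largest islet differences came with large spread between arrays. Psmd5 measured 7.76, 5.20, 6.17 and 7.89 in controls and 7.69, 6.04, 7.90 and 7.62 with FK866, on the scale of the islet arrays alone. The groups overlapped, control arrays 2 and 3 were low, and the difference of 0.56 log2 (SE 0.67) came from pairs 2 and 3, at 0.83 and 1.73, against -0.07 and -0.27 in pairs 1 and 4. Psmd5 was detected on 7 of 8 islet arrays, so its lowest values lay near background. Psmb7 measured 12.54, 9.09, 12.05 and 12.62 in controls and 12.58, 10.33, 12.47 and 12.59 with FK866. Arrays 2 were the lowest of both groups, and the difference of 0.42 (SE 0.85, or 0.21 with the replicate block) was 0.14 (SE 0.17) without both of them. Psmd11 measured 9.09, 6.92, 9.004 and 9.11 against 9.03, 8.19, 9.33 and 8.92. Its groups overlapped, and its difference of 0.33 (SE 0.51) was 0.02 (SE 0.14) without both arrays numbered 2.

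Psmb6 was higher with FK866 in every islet pair. It measured 12.83, 12.11, 12.72 and 12.84 in controls and 13.07, 12.73, 13.01 and 13.05 with FK866. Array 2 was the lowest of either group, and the other 3 FK866 arrays lay above all controls. The difference was 0.34 log2 (SE 0.21, 95% interval -0.15 to 0.82; limma, adjusted p = 1.00), with 0.23, 0.61, 0.29 and 0.20 in pairs 1 to 4, and 0.24 (SE 0.11; limma, adjusted p = 0.789) without both arrays numbered 2. Psmd2, the 1 other gene with an unadjusted p under 0.05 in the blocked fit, measured 6.59, 6.14, 6.57 and 6.59 in controls and 6.98, 6.398, 7.18 and 6.66 with FK866. Its groups overlapped through FK866 array 2 alone. It differed by 0.33 (SE 0.22), with 0.39, 0.26, 0.61 and 0.07 in the pairs, and by 0.36 (SE 0.15; limma, adjusted p = 0.789) without both arrays numbered 2.

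Psma5, Psmb2, Psmb6, Psmc1, Psmc2, Psmc3, Psmc5 and Psmd2 were higher with FK866 in all 4 islet pairs. These are 8 of the 32 genes, and 9.23% of all genes were higher in all pairs. Their differences ran from 0.10 for Psmc5 to 0.34 for Psmb6. Psmc2 had the most even ones, at 0.13, 0.19, 0.18 and 0.16 for a mean of 0.17 (SE 0.15). The activator Psme1 was lower in all 4 pairs, with pair differences of -0.02 to -0.35, which held for 12% of all genes. It measured 12.01, 12.16, 11.82 and 11.88 in controls and 11.94, 11.82, 11.71 and 11.86 with FK866. The groups overlapped, and its difference was -0.14 (SE 0.16). A second probe of Psme1, detected on all 8 islet arrays, differed by 0.03, so the direction rests on the probe. Psmb5 differed by 0.31 (SE 0.54), Psmd14 by 0.14 (SE 0.23) and Psme2 by 0.29 (SE 0.48).

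Without both islet arrays numbered 2, 28 genes again had higher means and 4 lower ones, with a median of 0.10 log2, but the genes differed. Psmd1, at 0.0049, and Psmd7, at 0.08, went from lower to higher, and Psmd9, at -0.03, and Psme3, at -0.03, from higher to lower. Limma again called 0 of the 32 (0% of all genes), with 558 of all genes at an unadjusted p under 0.05. Psma4, Psma5, Psmb2, Psmb6, Psmc1 and Psmd2 then had all 3 FK866 arrays above all 3 controls, and 4.93% of all genes did. None had them all below, and 7.64% of all genes did. Leaving out islet control array 2 alone gave a median of -0.02.

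The islet change was set against the hepatocyte change in 1 fit of all 4 groups. Limma called 0 of the 33 genes and 0 of all 10067 (0%), with 0 of the 33 and 180 of all genes at an unadjusted p under 0.05. The islet change was the higher for 28 of 33, with a median gap of 0.13 log2, so the larger islet values were not shown to differ from those in hepatocytes. Psmd5 had the largest gap, at 0.53 (SE 0.71), and Psmb6 had 0.25 (SE 0.22, 95% interval -0.22 to 0.73). With the replicate block 4 genes of all were called (0.0397%), 0 of them proteasome genes.

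On the islet arrays numbered 2 some proteasome genes lay far below and others far above the rest of their group. Against the mean of the other 3 arrays of the group, 11 of 32 genes were lower by over 1 log2 on the control array and 7 on the FK866 array, where 20.9% and 10.5% of all genes were. Psmb7 differed by -3.31 and -2.22, Psmb5 by -2.09 and -1.31, and Psmd5 by -2.07 and -1.70. In the other direction, Psmd1 was higher by 1.49 and 1.05, Psmd7 by 1.48 and 0.93 and Psmd4 by 1.25 and 1.009. These 6 genes were picked for their size on these arrays, so their like direction on both is no separate result. Some other proteasome genes turned sign between the 2 arrays, such as Psmd8 at 0.09 and -0.16 and Psme3 at -0.30 and 0.11. On the same arrays the median difference of fibroblast and stellate markers was 1.08 and 0.88. That of alpha, delta and PP cell markers was -0.58 and -0.96, that of duct markers -0.57 and -0.31 and that of beta cell markers -0.25 and -0.01. Endothelial markers were at 0.23 and 0.42, macrophage and leukocyte markers at -0.03 and 0.05 and hepatocyte markers at 0.11 and -0.30. The 1 acinar marker tested differed by -1.22 and -1.62, but also by 2.41 on islet control array 3 and 1.48 on islet FK866 array 3. The part of these markers in the proteasome values was not tested.

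**Figure D4:**
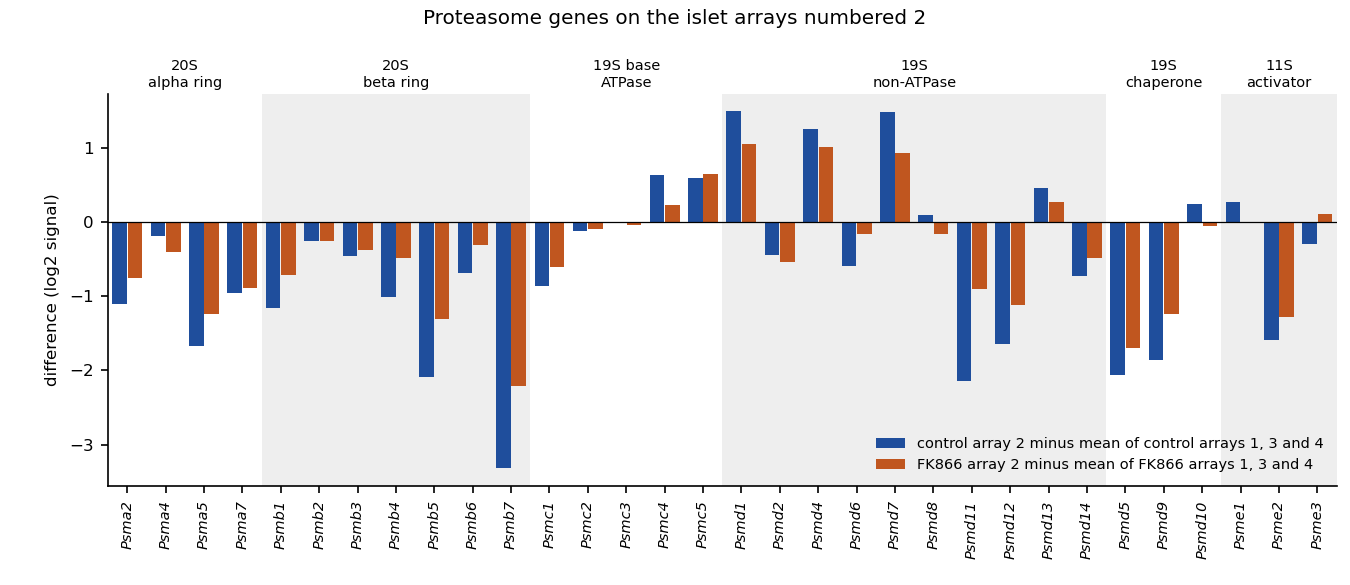
Difference in log2 signal between each islet array numbered 2 and the mean of the other 3 arrays of its group, for the 32 proteasome genes tested in islets, control in blue and FK866 in orange, with bars from 0. Psmb7 is lowest on both arrays, and Psmd1, Psmd4 and Psmd7 are highest on the control array.

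Other genes of the pathway were taken from lists of their own. Beside the counts in these lists, 31.1% of all genes were called lower in control islets and 35% higher. Of the 3 subunits that replace the catalytic ones in the immunoproteasome, Psmb8 was lower in control islets than in control hepatocytes by limma (-1.29 log2, SE 0.26) and Psmb9 higher (0.64, SE 0.15), with Psmb10 at -0.01 (SE 0.17). Among 20S assembly chaperones 2 of 3 tested were called lower, the maturation factor Pomp at -0.68 (SE 0.14) and Psmg3 at -0.55 (SE 0.14). Both deubiquitinases that bind the 19S regulator were called lower, Usp14 at -1.33 (SE 0.27) and Uchl5 at -1.94 (SE 0.51). So were the large activator Psme4 at -0.92 (SE 0.14) and the ubiquitin receptor Adrm1 at -0.67 (SE 0.11), whereas the inhibitor Psmf1 was called higher at 0.57 (SE 0.20). The testis and thymus subunits Psma8 and Psmb11 met the detection filter in no comparison.

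The next lists hold genes that act upstream of the proteasome. Of 6 tested ubiquitin shuttle factors 1 was called lower, Rad23b at -0.997 log2 (SE 0.20), and 1 higher, Ubqln1 at 0.56 (SE 0.17). Of 3 ubiquitin genes and activating enzymes tested, limma called 0, with 0 at an unadjusted p under 0.05. Of 5 tested genes of the p97 segregase, which extracts ubiquitin-bound proteins, Faf1 was called higher at 0.47 (SE 0.14). The transcription factors that control proteasome genes went apart: Nfe2l1 was higher in islets by 1.96 (SE 0.16; limma, adjusted p = 2.02e-08) and Nfe2l2 lower, at -3.15 (SE 0.31), the latter detected on 2 of 4 islet control arrays. Keap1, which restrains Nfe2l2, was higher at 0.69 (SE 0.17), and its partner factor Maff lower at -2.40 (SE 0.24), detected on 3 of 4 islet control arrays.

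**Figure D5:**
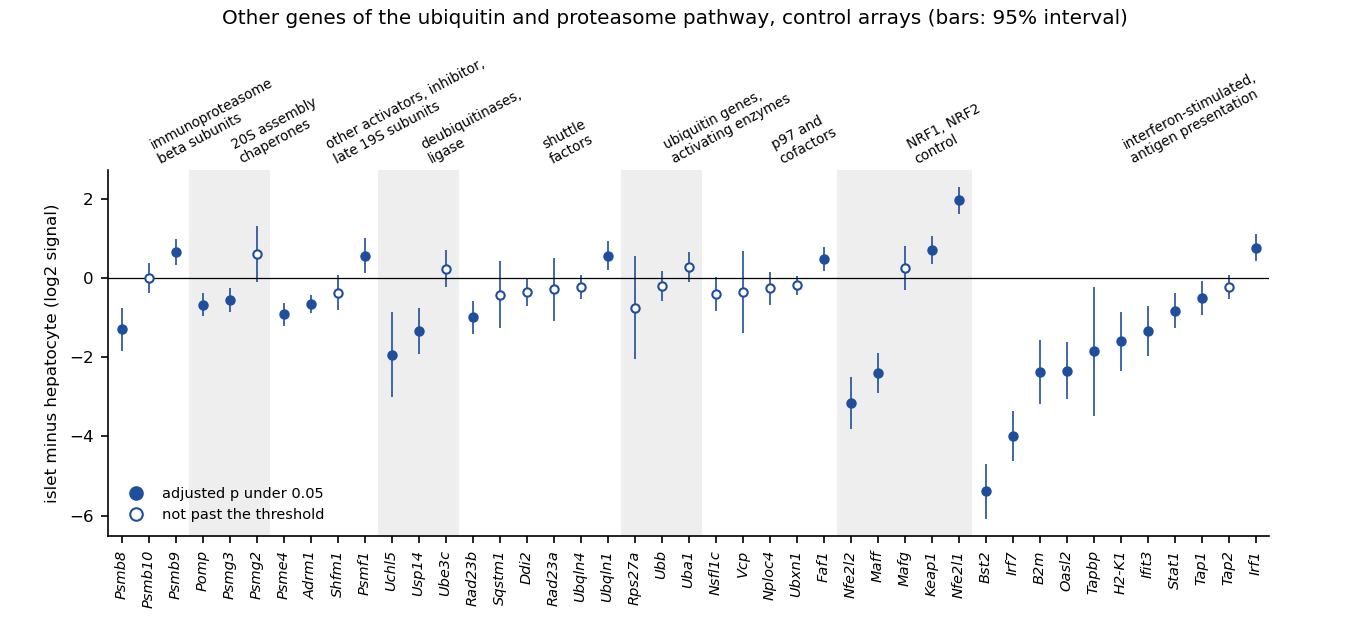
Difference in log2 signal, control islets minus control hepatocytes, of the other genes of the ubiquitin and proteasome pathway by list, with 95% intervals and 4 arrays per group. The list of interferon-stimulated and antigen presentation genes, which holds Bst2, is shown beside them. Filled points passed an adjusted p of 0.05 by limma, and Nfe2l1 lies highest at 1.96 and Bst2 lowest at -5.39.

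Genes of antigen presentation, which use proteasome products, shared a list with interferon-stimulated genes. Of its 11 tested genes 9 were called lower in control islets, where 31.1% of all genes were, and 1 higher, where 35% were. Bst2, detected on 3 of 4 islet control arrays, differed by -5.39 log2 (SE 0.32), Irf7, detected on 1 of 4, by -3.99 (SE 0.29) and B2m, the light chain of class I molecules, by -2.38 (SE 0.38), while Irf1 was higher by 0.76 (SE 0.16). With FK866 limma called 0 genes of any of these lists in either tissue. In islets the 3 immunoproteasome subunits had lower means, at a median of -0.30, and Psmb9 was lower in all 4 pairs (mean -0.30, SE 0.18), as 12% of all genes were. In the interferon and antigen presentation list 2 of 10 tested were lower in all 4 pairs, Oasl2 (mean -0.64, SE 0.31) and Irf1 (mean -0.25, SE 0.19), and 2 were higher, H2-K1 (mean 0.43, SE 0.46) and Bst2 (mean 0.59, SE 0.35), where 9.23% of all genes were higher. Of the remaining lists, Sqstm1, a ubiquitin receptor of autophagy (mean 0.54, SE 0.51), Rps27a (mean 0.46, SE 0.79) and Nsfl1c (mean 0.28, SE 0.26) were higher in all 4 pairs, as 9.23% of all genes were. They were 1 of 6 tested shuttle factors, 1 of 3 ubiquitin genes and activating enzymes and 1 of 5 p97 genes. No gene of the other remaining lists was higher in all pairs.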

How the data were processed

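The authors deposited, per the file headers, a table of bead-summary probe intensity for 25697 probes with a detection p-value beside each value for all 16 arrays, and a second table of per-gene scores. The scanning software, normalization tool and annotation were not given in the sources used here. Expression values had been assumed in the second table by the design, but its deposited scores proved to be standardised log10 intensity, floored at an intensity of 1. Intensities carried no gene names, so probes were named by matching each gene's scores to the standardised log10 intensity of a probe on all 16 arrays, to a tolerance of 1e-07. Of 18111 symbols, 16642 matched, 4896 of them to several probes, 1464 were at the floor on all arrays and 5 matched nothing.

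Intensities were background-corrected with limma 3.58.1 (R 4.3.3) by normexp with the detection p-values and an offset of 16, quantile normalized, and put on the log2 scale, within a tissue for FK866 and over all 16 arrays between tissues. A gene was tested if detected at p under 0.05 on at least 4 arrays, and was represented by its probe of highest mean signal. Linear models with empirical Bayes moderation were fitted over all genes, with Benjamini-Hochberg adjustment over all genes tested, a threshold of 0.05, and 5 comparisons. The fits were tested on simulated data. Array numbers were taken to pair samples because deviations of same-numbered control and FK866 arrays correlated at 0.385 to 0.615 in hepatocytes and 0.529 to 0.926 in islets (-0.369 to 0.0778 and -0.847 to 0.667 for other numbers). This pairing comes from the data and not from the labels. Alternatives were the replicate block, deposited scores, median centring, other detection filters, the mean of probes, and each array left out.

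Named with their array values were the 4 genes with the largest difference in each comparison, in each direction between tissues, the 3 catalytic subunits, Psmd14, Psme1 and Psme2. Of every other list, up to 3 genes of smallest p are named, and Psmb10, Keap1, B2m, Irf1, Psmd7 and others beyond these were chosen after their values were seen. The members and lists were chosen with earlier results of these data known. Promoters were searched with Python 3.11.15.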

Additional observations from a re-analysis of the deposited data

Results flagged for a closer look

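In groups of 4 arrays, 1 array lay far from the other 3 by Dixon's test for 28 values of proteasome genes, a test that chance alone passes in about 1 in 20 groups. Values are log2 signals normalized within a tissue. Each hepatocyte group held 33 genes and each islet group 32, and the share over all genes was not computed. In hepatocytes 1 control and 2 FK866 values passed, which is near that chance rate. Psmd6 was highest on control array 2 at 8.16, Psmb1 was highest on FK866 array 2 at 13.11, and Psmd4 was lowest on FK866 array 1 at 13.35.

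In islets all 25 lay on the arrays numbered 2. On the control array 9 genes were lowest: Psma2 at 12.999, Psmb1 at 11.47, Psmb5 at 8.59, Psmb6 at 12.11, Psmb7 at 9.09, Psmc1 at 10.05, Psmd2 at 6.14, Psmd9 at 5.99 and Psmd11 at 6.92. Psmd4 at 14.11 and Psmd7 at 12.53 were highest there. On the FK866 array 12 genes were lowest. These were Psma2 at 13.36, Psma4 at 12.22, Psma5 at 11.97, Psma7 at 11.31, Psmb2 at 12.75, Psmb5 at 9.48, Psmb6 at 12.73, Psmb7 at 10.33, Psmc1 at 10.41, Psmd5 at 6.04, Psmd9 at 6.57 and Psmd12 at 10.12. Psmc5 at 13.04 and Psmd7 at 12.05 were highest there.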

How the results depend on the processing

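Of the counts and medians recomputed under each alternative, 271 stayed alike and 13 moved. On the deposited scores 2 genes were called with FK866 in hepatocytes, and the control tissue median was -0.94, with the median of all genes moving from 0.08 to -0.05. The mean of all probes gave -0.90. Under both, and under median centring, 0 proteasome genes were called higher in control islets. Requiring detection on all arrays left 6357 genes and called 3910 in the control and 3751 in the FK866 tissue comparison. The replicate block called 1 gene in islets and 4 in the difference between tissues, as did leaving out both islet arrays numbered 2 in the latter (4), and beside Psmc6 it changed no other call of a named proteasome gene. Leaving out both islet arrays in the islet comparison was chosen after seeing the data. Leaving out 1 array gave proteasome medians of -0.012 to 0.044 for FK866 in hepatocytes, -0.019 to 0.24 in islets, -0.81 to -0.62 between tissues in controls and -0.70 to -0.59 with FK866.

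Signs of small differences turned, and the cause was not tested. In hepatocytes Psmd9 was 0.064 and Psmd2 -0.39 on the scores, and 0.038 and -0.071 with the mean of probes, while Psmb7 was -0.0034 on the scores. With the replicate block without pair 2, Psmd2 was -0.016, Psmb7 -0.0034, Psmd14 0.052 and Psme2 -0.095, and without pair 1 Psme2 was -0.0037. With median centring Psmc2 was -0.13 in the FK866 tissue comparison, and without both islet arrays numbered 2 Psme2 was 0.054 there. Leaving out 1 array in hepatocytes, Psmd2 ranged from -0.0028 to 0.19, Psmb7 from -0.024 to 0.053, Psmd14 from -0.098 to 0.089, Psme1 from -0.16 to 0.0015 and Psme2 from -0.12 to 0.059. In islets the lowest values came without control array 2 and the highest without FK866 array 2: Psmb7 ranged from -0.41 to 0.97, Psmd11 from -0.20 to 0.56, Psmb5 from -0.21 to 0.64, Psmd14 from -0.047 to 0.26 and Psme2 from -0.10 to 0.61. Between tissues Psme3 ranged from -0.0083 to 0.18 in controls, and with FK866 Psmd4 ranged from -0.28 to 0.12 and Psme2 from -0.43 to 0.054.

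The number of arrays and the 2 weak islet arrays limit the precision in islets. Without the replicate block the SE of a difference with FK866 reached 0.85 log2 for Psmb7, and with the block that SE was 0.21. Psmc6 lies near background, Psmd5 was detected on 7 of 8 islet arrays, and Psma1, Psma3 and Psma6 have no level. Probes of Psmc5 oppose each other between tissues, as do those of Psme1 and Psmd7 with FK866 in islets.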
